A study of Mus musculus with 13 samples.

Results

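The 10 genes described here act in glucose uptake, in glycolysis to lactate, and in limiting the entry of pyruvate into the mitochondrion. They are Slc2a1, Hk1, Hk2, Pfkl, Aldoa, Gapdh, Pgk1, Eno1, Ldha and Pdk1. They were taken by name from a table of 24015 gene symbols, all 10 were found, and their level was read in each library as CPM, a gene's counts per 1000000 counted reads. The RNA came from sorted haematopoietic stem cells (HSCs) of the mouse, 100 cells to a library, in 13 bulk libraries. Single Vwf+ HSCs of C57BL/6 mice (Vwf encodes the clotting protein von Willebrand factor) had been transplanted, and the blood that each one made was followed for 16 weeks. The groups were 3 PLT-HSC libraries from P-restricted recipients, 6 PEM-HSC libraries from PEM-restricted recipients and 4 MUL-HSC libraries from multilineage recipients, where P, E and M are the field's usual letters for platelets, erythroid cells and myeloid cells. All 3 groups share donor strain, tissue and gate: bone marrow cells that are Lin-, Sca-1+ and Kit+ (LSK), Flt3-, CD150+, CD48-, CD45.2+ and Gata1-. Cells of 1 recipient therefore descend from 1 transplanted cell. The age of the recipients, and which libraries came from the same recipient, are not given in the sources used here, so a p-value is set against the spread among the libraries at hand, part of which may be technical.

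Glycolysis splits glucose into pyruvate and yields ATP without oxygen. Quiescent HSCs of the bone marrow are known for relying on it, and for limiting the entry of pyruvate into the mitochondrion through pyruvate dehydrogenase kinases. The transcription factor HIF-1, which accumulates at low oxygen, and MYC, which acts in growing cells, are both known activators of many glycolysis genes.

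The libraries held 16371921 to 41367057 counts on genes and detected 11233 to 12310 genes. The RNA was set beside the gate, and all 12 HSC identity genes were detected. A list of 4 genes for cells outside the gate was led by Gata1 and Cd48. It also held Il7r, which the gate as given does not name and which was at 0 in every library. The 4 genes summed to 6.47 to 25.0 CPM in PLT-HSC, 2.94 to 22.4 CPM in PEM-HSC and 13.4 to 89.7 CPM in MUL-HSC. The HSC identity genes themselves moved with the groups: they summed to 3344 to 3931 CPM in PLT-HSC, 2967 to 3517 CPM in PEM-HSC and 2042 to 3128 CPM in MUL-HSC, and 11 of 12 had a positive log2 difference for PLT-HSC against MUL-HSC (median 0.90), with 10 of 12 for PEM-HSC against MUL-HSC (median 0.67). Of them edgeR called Ctnnal1, higher in PLT-HSC than in MUL-HSC (adjusted p = 0.0487), which is named here after its value was seen. Of 9 erythroid genes 5 were at 0 in every library, among them the globin genes Hba-a1 and Hbb-b1. The 9, led by Epb4.2 and Alas2, summed to 0 to 2.34 CPM in PLT-HSC, 0 to 18.3 CPM in PEM-HSC and 0 to 16.2 CPM in MUL-HSC. The neutrophil gene Ltf was at 0 throughout. The 9 neutrophil genes, led by Ngp and S100a8, summed to 0 to 6.44 CPM in PLT-HSC, 0.0357 to 14.4 CPM in PEM-HSC and 0.991 to 8.43 CPM in MUL-HSC. The 10 macrophage genes summed to 73.5 to 219.7 CPM in PLT-HSC, 75.3 to 369.8 CPM in PEM-HSC and 28.3 to 72.3 CPM in MUL-HSC, so the sums of PLT-HSC and PEM-HSC did not overlap those of MUL-HSC. The highest of them on average was Cd68, with 123 ± 85.0 CPM in PLT-HSC, 79.95 ± 81.2 CPM in PEM-HSC and 14.0 ± 3.86 CPM in MUL-HSC. The list did not move as a whole between PLT-HSC and MUL-HSC, where 4 of 7 tested genes were positive (median log2 difference 0.02), and Axl had 11.2 ± 10.3 CPM in PLT-HSC, 23.3 ± 12.6 CPM in PEM-HSC and 16.2 ± 13.8 CPM in MUL-HSC. For PEM-HSC against MUL-HSC 7 of 7 were positive, and none of the 7 was called in either comparison. Other lists held some RNA in all groups. The 9 B and plasma cell genes summed to 93.5 to 184.8 CPM over the libraries, led by Cd79b, with Pax5 at 0. The 6 endothelial genes summed to 271.9 to 532 CPM, led by Esam and Emcn, with Cdh5 at 0. The 9 megakaryocyte and platelet genes summed to 130.8 to 309 CPM, led by Pf4 and Gp9, with Gp6 at 0. The part of these markers in the values below was not tested. In bulk RNA, fewer cells that express a gene and less of its RNA per cell cannot be told apart.

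For none of the 10 genes was a difference between groups large enough, against the spread of the libraries, to pass the test. In each comparison, edgeR's quasi-likelihood test with Benjamini-Hochberg adjustment over 12536 genes called 0 of 10 at an adjusted p under 0.05, and DESeq2 and limma voom also called 0 of 10. DESeq2 called more of all genes than edgeR in each comparison (counts at the end), so the shares below hold for edgeR alone. Over all genes the edgeR test called 0.0479% for PLT-HSC against MUL-HSC, 0.00798% for PEM-HSC against MUL-HSC and 0% for PLT-HSC against PEM-HSC, so 0 of 10 is the count that such a share gives. By direction, 0.0399% of genes were called higher and 0.00798% lower in PLT-HSC than in MUL-HSC. An unadjusted p under 0.05 was reached by 1 of 10 genes, Pgk1, for PLT-HSC against MUL-HSC (7.37% of all genes) and for PEM-HSC against MUL-HSC (5.93% of all genes), with a negative sign in both, and by 0 of 10 for PLT-HSC against PEM-HSC (3.73%). A count of 1 in 10 is near these shares. The median log2 difference of the 10 genes was -0.04 for PLT-HSC against MUL-HSC (all genes 0.04), -0.03 for PEM-HSC against MUL-HSC (all genes 0.01) and -0.22 for PLT-HSC against PEM-HSC (all genes 0.02). The signs were split 5 positive to 5 negative, 4 to 6 and 2 to 8. The comparisons with MUL-HSC share its 4 libraries, so their values are given side by side and not as repeats of each other.

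The 10 genes covered a wide range of levels, and 9 of them lay above the middle of all detected genes. Detected here means a known exon length and a count in at least 1 of the 13 libraries. This set is wider than the 12536 genes tested, and the position among the tested genes was not computed. Per kilobase of exon (CPM divided by the gene's exon length), Ldha averaged 849 ± 174 CPM per kb and Aldoa 676 ± 112 CPM per kb, which are above 99.7% and 99.5% of 15004 detected genes (SD over 13 libraries). Gapdh followed at 318 ± 65.6 CPM per kb and Pgk1 at 65.3 ± 15.9 CPM per kb. Pdk1 averaged 11.9 ± 4.05 CPM per kb, Slc2a1 7.999 ± 5.46, Hk2 7.92 ± 4.68, Pfkl 7.86 ± 6.52 and Hk1 6.54 ± 3.58 CPM per kb, which are above 58.0% (Hk1) to 67.5% (Pdk1) of detected genes. Eno1 came last at 1.80 ± 0.39 CPM per kb, above 38.9% of detected genes. Ldha and Aldoa overlapped within 1 SD, as did each neighbouring pair among Pdk1, Slc2a1, Hk2, Pfkl and Hk1. The steps down to Gapdh, to Pgk1, to Pdk1 and to Eno1 were wider than 1 SD. These SDs describe the spread between libraries. The genes were measured in the same libraries, and their order within each library was not tested. Ldha, Aldoa and Gapdh together took 88.2% to 93.5% of the counts of the 10 genes in every library.

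**Figure D1:**
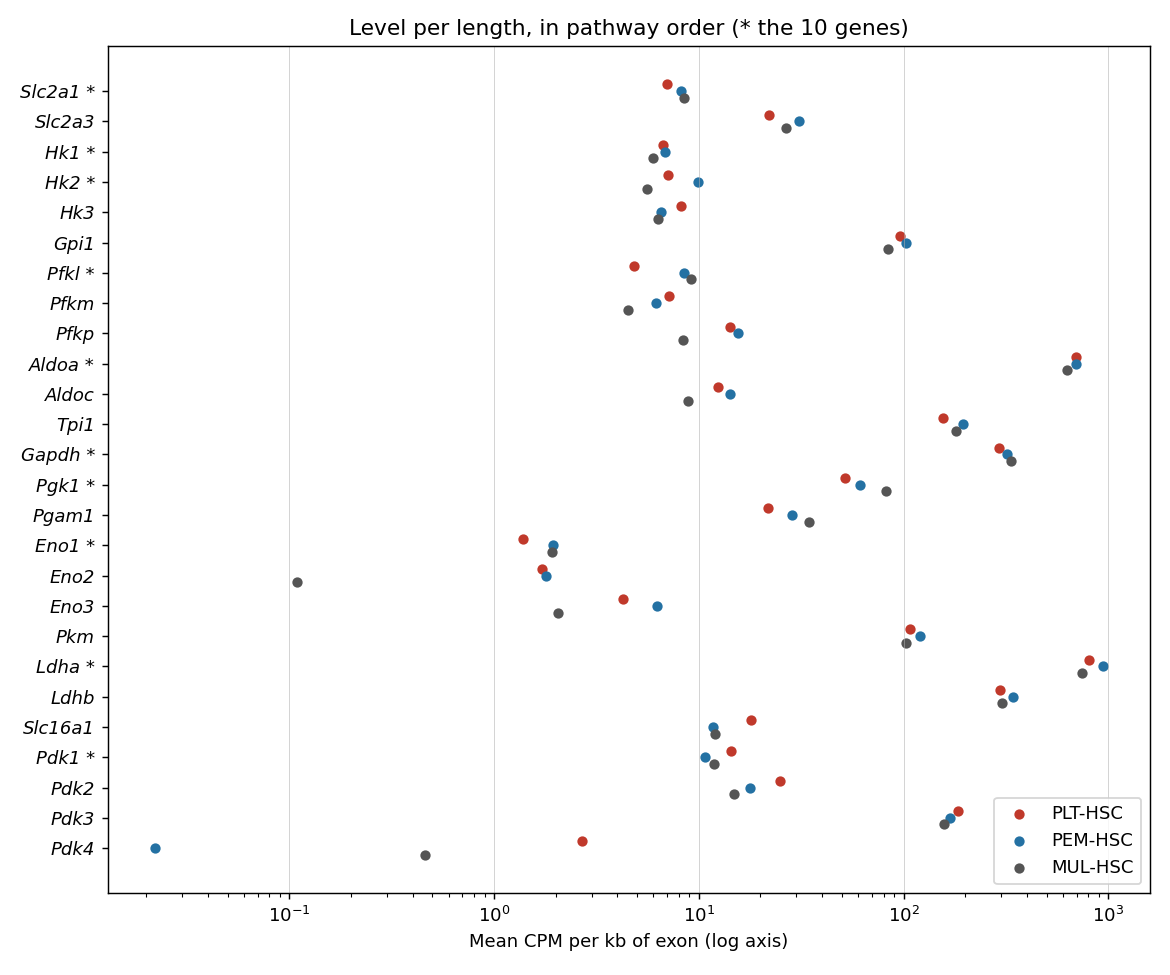
Mean level of glycolysis genes and pyruvate dehydrogenase kinases in CPM per kilobase of exon on a log axis, in the order of the pathway, with 1 point each for the mean of PLT-HSC, PEM-HSC and MUL-HSC; stars mark the 10 genes. Ldha and Aldoa, at 849 and 676 CPM per kb over all libraries, stand far to the right of Slc2a1, Hk1, Hk2 and Pfkl, at 6.54 to 7.999, and the points of Pdk4 and Eno2, which are near 0 in some groups, lie furthest apart.

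Slc2a1, Hk1, Hk2 and Pfkl varied most between libraries. The coefficient of variation over the 13 libraries was 16.6% for Aldoa, 20.5% for Ldha and 20.6% for Gapdh, against 54.8% for Hk1, 59.1% for Hk2, 68.3% for Slc2a1 and 83.0% for Pfkl. Because genes of low counts tend to vary more, each gene was set beside the genes within 2-fold of its mean CPM. Pfkl was variable even so: 5.60% of 3858 such genes had a larger coefficient of variation. Eno1 was the reverse, at 21.7%. At its listed level, 99.7% of 2220 genes of like level varied more and their median was 100.1%. That level is uncertain, so genes of the same listed level may not be a like set for Eno1. The other 8 genes lay between Pfkl and Eno1, with 17.3% (Hk2) to 65.8% (Pgk1) of the genes of like level above them.

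Slc2a1 encodes GLUT1, the glucose transporter of the plasma membrane that many blood cells use for basal uptake. It was detected at 20.5, 2.74 and 45.4 CPM in the 3 PLT-HSC libraries. In PEM-HSC it ran from 16.9 CPM to 40.4 CPM with a median of 24.2 CPM, and the MUL-HSC libraries held 4.51, 41.4, 3.60 and 60.9 CPM. Low and high libraries occurred in both PLT-HSC and MUL-HSC, while the 6 PEM-HSC libraries lay between those extremes. The log2 difference was -0.34 (SE 0.89) for PLT-HSC against MUL-HSC and -0.05 (SE 0.75) for PEM-HSC against MUL-HSC. The 95% interval of the PLT-HSC to MUL-HSC ratio, 0.214 to 2.91-fold, leaves differences of that size unresolved.

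Hexokinases trap glucose in the cell by phosphorylating it. Hk1 is the broadly expressed form and Hk2 the form known to be induced by HIF-1 and insulin. Hk1 was at 31.4, 14.0 and 51.9 CPM in PLT-HSC, at 18.2 to 65.8 CPM (median 29.4) in PEM-HSC, with 21.5, 27.4, 7.33 and 59.3 CPM in the MUL-HSC libraries, and the groups overlapped throughout. Hk2 was at 11.4, 46.1 and 61.7 CPM in PLT-HSC, at 27.4 to 114.7 CPM (median 48.2) in PEM-HSC, with 36.5, 11.4, 44.6 and 33.1 CPM in the MUL-HSC libraries. Its PEM-HSC mean of 55.6 ± 31.2 CPM (SD, n = 6) was set by replicate 5 to a large degree, whose 114.7 CPM was the highest value of the 13, and 3 of the 6 PEM-HSC libraries lay within the range of MUL-HSC. For Hk2 the log2 difference was 0.82 (SE 0.51, unadjusted p = 0.125, adjusted p = 0.999 by edgeR) for PEM-HSC against MUL-HSC and 0.32 (SE 0.58) for PLT-HSC against MUL-HSC. For Hk1 these differences were 0.20 (SE 0.52) and 0.12 (SE 0.61).

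Pfkl encodes the liver-type subunit of phosphofructokinase, which catalyses the committed step of glycolysis. It was at 16.4, 8.81 and 28.9 CPM in PLT-HSC. PEM-HSC libraries ran from 10.5 CPM to 70.2 CPM with a median of 19.7 CPM, and MUL-HSC libraries held 31.9, 3.71, 23.1 and 78.1 CPM. Its lowest and its highest library were both MUL-HSC, replicates 2 and 4, which differed 21.1-fold. The log2 difference of -0.95 (SE 0.84) for PLT-HSC against MUL-HSC was the largest in size among the 10 genes in any of the 3 comparisons, but its SE was nearly as large, with an unadjusted p of 0.277 and an adjusted p of 0.980 by edgeR. It was -1.37 when PLT-HSC replicate 3 was left out and -0.19 when MUL-HSC replicate 4 was, so its size rests on single libraries.

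Aldoa encodes aldolase A, which cleaves fructose 1,6-bisphosphate into a pair of triose phosphates. It was the steadiest of the 10 genes: 1302, 1446 and 1055 CPM in PLT-HSC, 980.0 to 1644 CPM (median 1294) in PEM-HSC, with 1154, 1024, 1139.6 and 1289.8 CPM in the MUL-HSC libraries. The means were 1268 ± 198 CPM over the 3 PLT-HSC libraries, 1268 ± 266 CPM over the 6 PEM-HSC libraries and 1152 ± 109 CPM over the 4 MUL-HSC libraries (mean ± SD). The 95% interval was 0.819 to 1.503-fold for PLT-HSC against MUL-HSC and 0.839 to 1.41-fold for PEM-HSC against MUL-HSC.

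Gapdh encodes glyceraldehyde-3-phosphate dehydrogenase, the NADH-producing step that is often used as a loading control. It was at 349, 479 and 489 CPM in PLT-HSC, at 371 to 697 CPM (median 448.5) in PEM-HSC, with 638, 429, 413 and 518 CPM in the MUL-HSC libraries. The groups overlapped, and the log2 difference was -0.19 (SE 0.23) for PLT-HSC against MUL-HSC, -0.09 (SE 0.19) for PEM-HSC against MUL-HSC and -0.11 (SE 0.21) for PLT-HSC against PEM-HSC. Many near-identical copies of Gapdh exist in the mouse genome: 58.4% of the 50-base windows of its transcripts (GENCODE vM21) also occur in transcripts of other genes, 222 of them. How reads that match several places were counted is not given in the sources used here, so its level is uncertain to that extent.

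Pgk1 encodes phosphoglycerate kinase, the first ATP-yielding step of the pathway and a known HIF-1 target. It was at 88.1, 102.7 and 92.0 CPM in PLT-HSC. In PEM-HSC it ran from 89.6 CPM to 151.9 CPM with a median of 98.5 CPM, and in MUL-HSC it was at 169.5, 148.4, 149.4 and 129.6 CPM. All 3 PLT-HSC libraries lay below all 4 MUL-HSC libraries, while in PEM-HSC 4 libraries lay below every MUL-HSC library and 2 within their range. For PLT-HSC against MUL-HSC, Pgk1 and none of the other 9 genes had groups that did not overlap, and 6.79% of all tested genes had such groups, so 1 of 10 is close to the background. None of the 10 genes separated PEM-HSC from MUL-HSC or PLT-HSC from PEM-HSC, where the shares of all genes were 1.49% and 2.16%.

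The mean of Pgk1 was 94.3 ± 7.55 CPM over the 3 PLT-HSC libraries, 111.4 ± 26.1 CPM over the 6 PEM-HSC libraries and 149.2 ± 16.3 CPM over the 4 MUL-HSC libraries (mean ± SD). The log2 difference was -0.67 (SE 0.25) for PLT-HSC against MUL-HSC, with an unadjusted p of 0.0157 and an adjusted p of 0.630 by edgeR, and the 95% interval of the ratio was 0.438 to 0.905-fold. It was -0.45 (SE 0.20, unadjusted p = 0.0430, adjusted p = 0.820 by edgeR) for PEM-HSC against MUL-HSC and -0.22 (SE 0.23) for PLT-HSC against PEM-HSC. Neither difference passed after adjustment. The adjusted p for PLT-HSC against MUL-HSC ranged from 0.241 to 0.967 over the 24 alternatives, all of which kept the negative sign. Of the windows of Pgk1, 68.0% also occur in transcripts of other genes, nearly all of them in Pgk1-rs7, which has no row of its own among the symbols used here, so the level of Pgk1 is uncertain as that of Gapdh is.

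**Figure D2:**
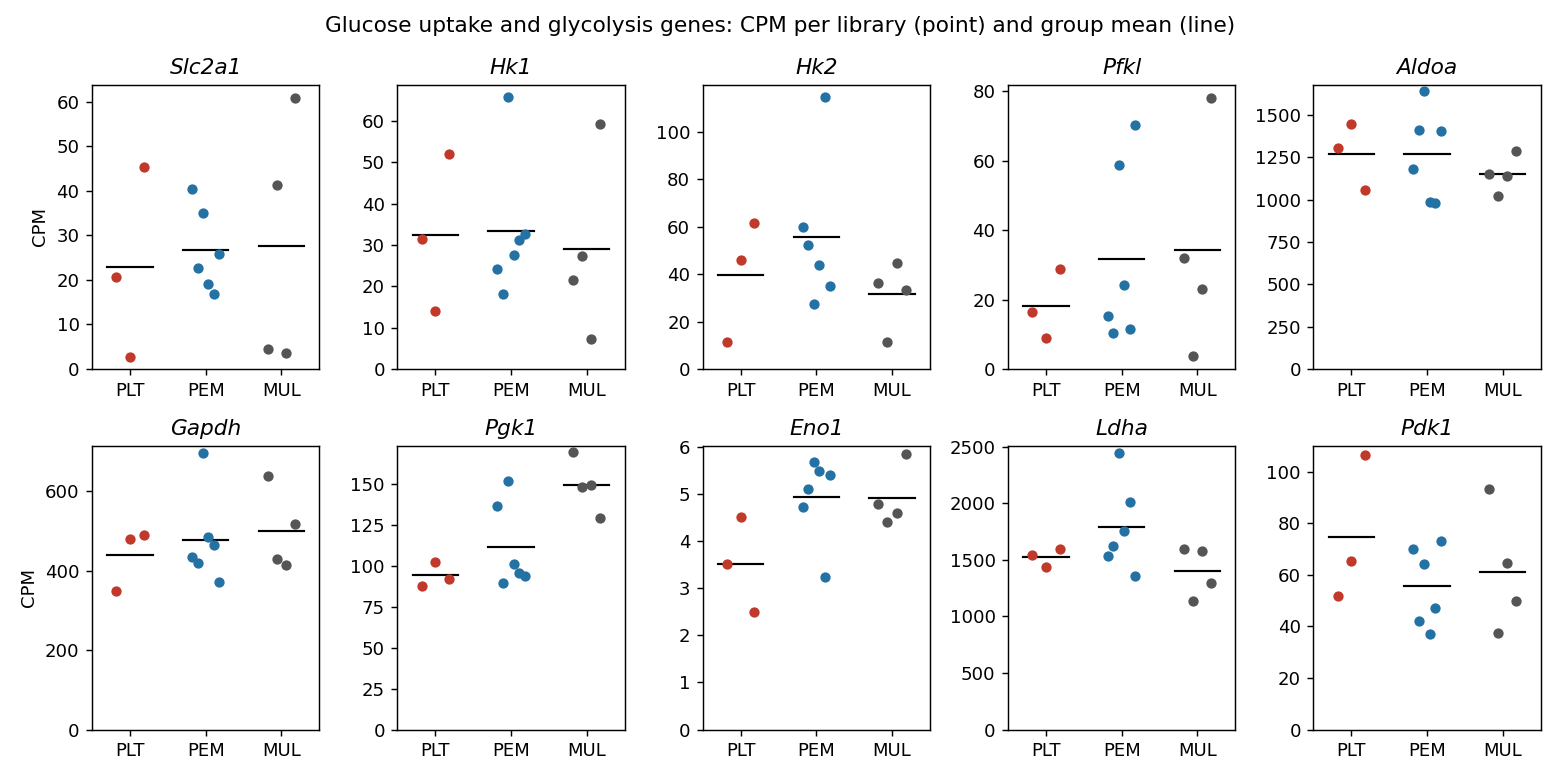
Level of each of the 10 genes in CPM, 1 panel per gene with its own axis starting at 0, 1 point per library and a line at the group mean, for PLT-HSC (n = 3), PEM-HSC (n = 6) and MUL-HSC (n = 4). The groups overlap in every panel except Pgk1, where PLT-HSC, at 88.1 to 102.7 CPM, lies below MUL-HSC, at 129.6 to 169.5 CPM.

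Eno1 encodes alpha-enolase, the usual enolase of non-neural tissue. It was listed at very low counts, 75 to 242 per library: 3.52, 4.51 and 2.497 CPM in PLT-HSC, 3.23 to 5.67 CPM (median 5.25) in PEM-HSC, with 4.78, 4.40, 4.58 and 5.85 CPM in the MUL-HSC libraries. The range of PLT-HSC reached lower than those of the other groups and overlapped both. Of its windows 49.5% occur in transcripts of other genes, most of them in Eno1b, whose own level was 0.642 ± 0.229 CPM in PLT-HSC, 0.662 ± 0.218 CPM in PEM-HSC and 0.891 ± 0.439 CPM in MUL-HSC. Summed, Eno1 and Eno1b had 88 to 276 counts, or 3.30 to 6.67 CPM. Whether reads shared by the copies were dropped was not tested, so the low level cannot be read as the level of the enzyme's RNA. The log2 difference was -0.46 (SE 1.19) for PLT-HSC against MUL-HSC and -0.01 (SE 0.99) for PEM-HSC against MUL-HSC, and edgeR draws these errors toward those of genes of like abundance, which vary more.

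Ldha encodes the A subunit of lactate dehydrogenase, which turns pyruvate into lactate and restores NAD+. With Aldoa it was at the top of the 10 genes: 1539, 1439 and 1599.6 CPM in PLT-HSC, 1358 to 2444 CPM (median 1691) in PEM-HSC, with 1598, 1141, 1578 and 1295 CPM in the MUL-HSC libraries. Of the 6 PEM-HSC libraries 4 lay above every MUL-HSC library, and the others overlapped with MUL-HSC. The mean was 1526 ± 81.2 CPM over the 3 PLT-HSC libraries, 1788 ± 389 CPM over the 6 PEM-HSC libraries and 1403 ± 223 CPM over the 4 MUL-HSC libraries (mean ± SD). For PEM-HSC against MUL-HSC the log2 difference was 0.33 (SE 0.17, unadjusted p = 0.0699, adjusted p = 0.922 by edgeR), with a 95% interval of 0.980 to 1.61-fold. Without PEM-HSC replicate 3, the highest library, the log2 difference was 0.22.

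Pdk1 encodes a pyruvate dehydrogenase kinase, which switches off the enzyme that feeds pyruvate into the mitochondrion, and is a known HIF-1 target. It was at 51.8, 65.2 and 106.6 CPM in PLT-HSC, at 37.0 to 73.0 CPM (median 55.5) in PEM-HSC, with 93.2, 37.4, 64.6 and 49.9 CPM in the MUL-HSC libraries. The highest library was PLT-HSC replicate 3 and the lowest PEM-HSC replicate 4, and the groups overlapped. The log2 difference was 0.25 (SE 0.37) for PLT-HSC against MUL-HSC, -0.17 (SE 0.31) for PEM-HSC against MUL-HSC and 0.42 (SE 0.34) for PLT-HSC against PEM-HSC. No window of Pdk1 or Hk2 was shared with another gene, and under 11% of the windows of Slc2a1, Hk1, Pfkl, Aldoa and Ldha were.

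**Figure D3:**
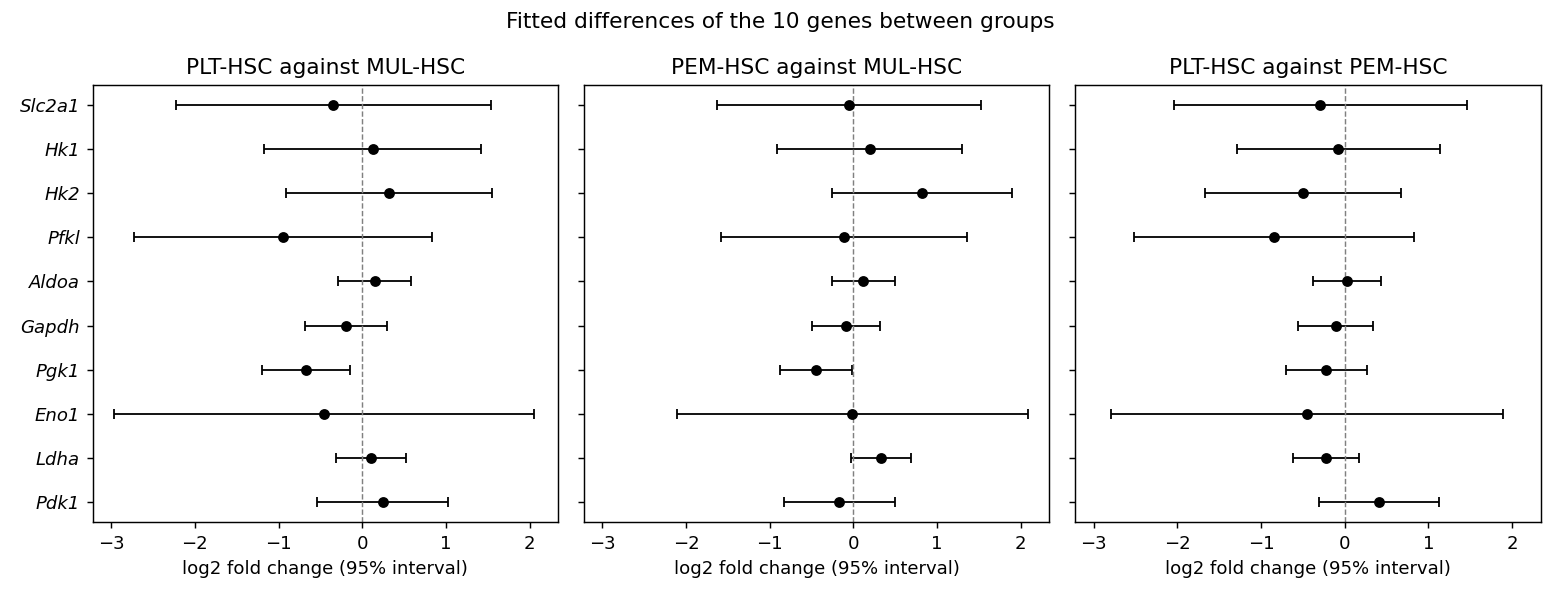
Log2 difference of each of the 10 genes with its 95% interval from edgeR's quasi-likelihood fit, 1 panel per comparison on a shared axis. Every interval crosses 0 except those of Pgk1 against MUL-HSC, at -0.67 in PLT-HSC and -0.45 in PEM-HSC, and neither of these passed after adjustment over all genes.

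No library was the highest or the lowest for all 10 genes, but PEM-HSC replicate 3 lay above the median of the gene for 8 of them. That number was 7 in PLT-HSC replicate 3 and in MUL-HSC replicate 4, and 2 in PLT-HSC replicate 1 and in MUL-HSC replicate 2. PEM-HSC replicate 3 was highest for 4 of them, Hk1, Aldoa, Gapdh and Ldha, and MUL-HSC replicate 4 for 3, Slc2a1, Pfkl and Eno1. MUL-HSC replicate 2 was lowest for 3, Hk2, Pfkl and Ldha. The summed level of the 10 genes was 3413 to 3607 CPM in PLT-HSC, 3471 to 5194 CPM in PEM-HSC and 2868 to 3752 CPM in MUL-HSC, with PEM-HSC replicate 3 at the top and MUL-HSC replicate 2 at the bottom. The 3 PLT-HSC libraries lay within the range of the MUL-HSC libraries.

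Most steps can be catalysed by several isoforms, and the share of each isoform in the counts of its step does not depend on library size. Ldha made up 80.0%, 74.7% and 84.9% of Ldha plus Ldhb in PLT-HSC, 75.7% to 84.8% (median 79.8%) in PEM-HSC and 79.8%, 72.8%, 78.3% and 80.8% in MUL-HSC. Ldhb, the isoform that favours pyruvate, was itself abundant, at 386 ± 101 CPM in PLT-HSC, 446 ± 68.5 CPM in PEM-HSC and 394 ± 59.3 CPM in MUL-HSC. Aldoa made up 94.7% to 99.1% of Aldoa plus Aldoc in all libraries. These shares were steady, and the dominant isoform was the same in every library.

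Slc2a1 and Pdk1 were minor isoforms of their step. Slc2a1 was 16.9%, 3.27% and 36.1% of Slc2a1 plus Slc2a3 in PLT-HSC, 13.1% to 24.4% (median 17.1%) in PEM-HSC and 10.2%, 30.6%, 3.89% and 23.3% in MUL-HSC, so that Slc2a3, which encodes the high-affinity transporter GLUT3, took most of the counts everywhere. Per kilobase its share was 3.95% to 40.6%. Slc2a3 had 87.6 ± 11.7 CPM in PLT-HSC, 122 ± 33.9 CPM in PEM-HSC and 106 ± 67.9 CPM in MUL-HSC. Pdk1 was 9.69%, 11.3% and 22.4% of the 4 kinases in PLT-HSC, 8.43% to 16.5% (median 12.46%) in PEM-HSC and 20.3%, 10.99%, 14.4% and 10.6% in MUL-HSC. Pdk3 was the most abundant kinase, at 389.9 ± 75.6 CPM in PLT-HSC, 357 ± 89.7 CPM in PEM-HSC and 333 ± 40.3 CPM in MUL-HSC, while Pdk2 had 56.0 ± 7.32 CPM in PLT-HSC, 39.9 ± 10.97 CPM in PEM-HSC and 33.5 ± 24.5 CPM in MUL-HSC. Pdk4 was at or near 0 in most libraries and reached 27.9 CPM in 1 PLT-HSC library.

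The shares of Hk1 and Pfkl in their steps ran over a wider range. Hk1 was 31.7%, 18.4% and 42.1% of the 3 hexokinases in PLT-HSC, 20.3% to 51.0% (median 27.2%) in PEM-HSC and 34.5%, 60.4%, 13.02% and 36.7% in MUL-HSC. Pfkl was 18.7%, 12.2% and 20.3% of the 3 phosphofructokinase subunits in PLT-HSC, 10.5% to 43.3% (median 24.4%) in PEM-HSC and 44.8%, 8.65%, 28.3% and 56.1% in MUL-HSC. Within MUL-HSC, replicate 2 had the highest share of Hk1 and the lowest of Pfkl. Hk3 averaged 27.3 ± 25.3 CPM in PLT-HSC, 21.9 ± 13.04 CPM in PEM-HSC and 21.2 ± 32.1 CPM in MUL-HSC. Pfkp, the platelet-type subunit, had 61.3 ± 7.44 CPM in PLT-HSC, 67.1 ± 27.9 CPM in PEM-HSC and 36.0 ± 8.16 CPM in MUL-HSC. Its log2 difference was 0.76 (SE 0.39) for PLT-HSC against MUL-HSC and 0.88 (SE 0.34, unadjusted p = 0.0187, adjusted p = 0.745 by edgeR) for PEM-HSC against MUL-HSC, so it did not pass either. Pfkm was at 21.6 ± 19.5 CPM in PLT-HSC, 18.5 ± 7.72 CPM in PEM-HSC and 13.6 ± 4.88 CPM in MUL-HSC.

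The share that spread widest was that of Eno1 among Eno1, Eno2 and Eno3. It was 13.4%, 45.7% and 28.2% in PLT-HSC, 15.1% to 92.2% (median 24.8%) in PEM-HSC and 54.1%, 94.2%, 89.3% and 38.8% in MUL-HSC. PLT-HSC overlapped MUL-HSC at a single library, and 5 of the 6 PEM-HSC libraries lay below every MUL-HSC library while replicate 4 lay near the top. The means were 29.1% ± 16.2 over the 3 PLT-HSC libraries, 34.5% ± 28.7 over the 6 PEM-HSC libraries and 69.1% ± 27.0 over the 4 MUL-HSC libraries (mean ± SD). The difference between PEM-HSC and MUL-HSC gave p = 0.0857 in a two-sided exact permutation test, and 0.958 after Benjamini-Hochberg adjustment over 21 share tests. Without PEM-HSC replicate 4, the PEM-HSC library that was not below MUL-HSC, that exact permutation p was 0.0159 and 0.333 after adjustment. Before adjustment it rose to 0.190 without MUL-HSC replicate 3 and to 0.214 without MUL-HSC replicate 2. The Eno1 counts behind the share are small and uncertain, as given above. Those of the other forms are small too: Eno2, the neuronal form, averaged 4.78 ± 8.07 CPM in PLT-HSC, 5.01 ± 5.06 CPM in PEM-HSC and 0.306 ± 0.329 CPM in MUL-HSC, and Eno3, the muscle form, 6.67 ± 1.67 CPM in PLT-HSC, 9.78 ± 5.39 CPM in PEM-HSC and 3.22 ± 4.03 CPM in MUL-HSC.

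None of the 21 share tests (7 steps, 3 comparisons) passed, and the lowest adjusted p was the 0.958 above. Before adjustment, the two-sided exact permutation test cannot go below p = 0.0571 for PLT-HSC against MUL-HSC, 0.0238 for PLT-HSC against PEM-HSC and 0.00952 for PEM-HSC against MUL-HSC. The first of these is above 0.05 even unadjusted. With adjustment over 21 tests, a single share at any of these lowest values would not pass either. The lack of a call therefore does not show that the shares were alike.

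**Figure D4:**
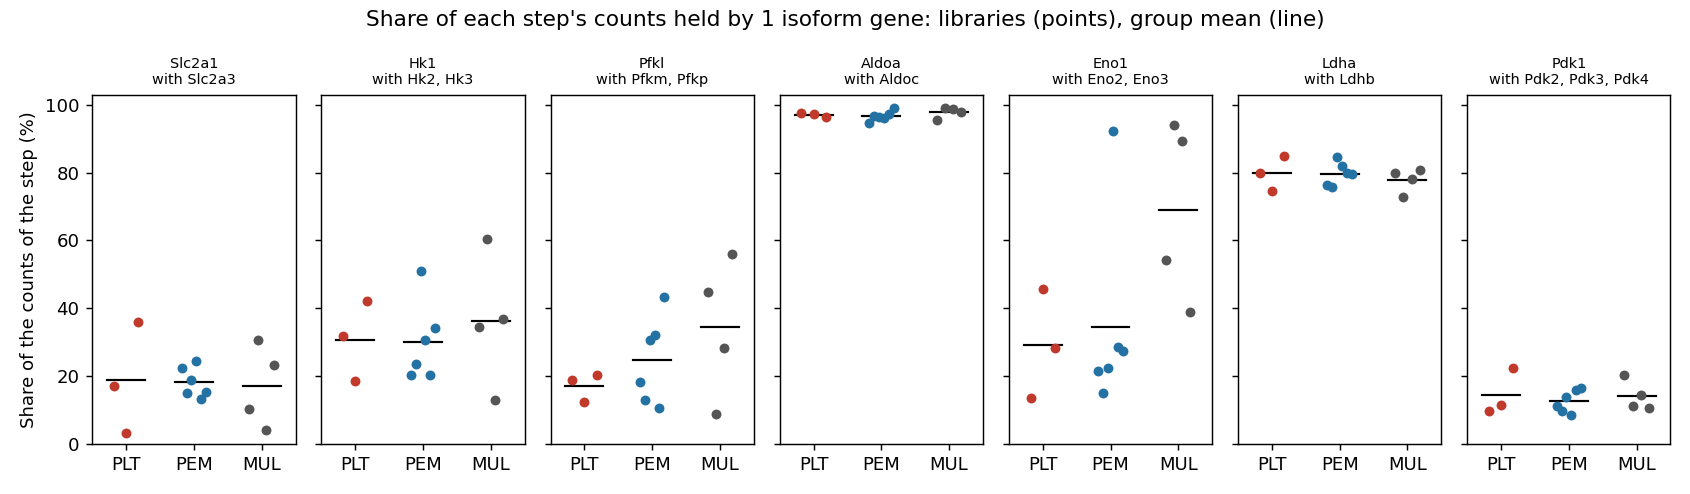
Share of each named isoform in the counts of its step, in percent, 1 panel per step and 1 point per library, for PLT-HSC, PEM-HSC and MUL-HSC. Ldha (72.8% to 84.9%) and Aldoa (94.7% to 99.1%) are steady, while Eno1 runs from 13.4% to 94.2%.

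The other genes of glucose metabolism gave no call either. Of 84 genes in 6 lists (other glycolysis enzymes and transporters, regulators of flux, pyruvate to mitochondria, pentose phosphate, HIF regulators and other HIF targets), 71 were tested and 0 were called by edgeR in any of the 3 comparisons. At an unadjusted p under 0.05 there were 8, 3 and 3 of 71 for PLT-HSC against MUL-HSC, PEM-HSC against MUL-HSC and PLT-HSC against PEM-HSC, where over all genes the shares were 7.37%, 5.93% and 3.73%. Of the 16 tested other glycolysis enzymes and transporters, 0, 1 and 0 did so. Their signs were split 10 positive to 6 negative, 13 to 3 and 4 to 12. The median log2 differences of these 16 were 0.30, 0.24 and -0.15 (all genes 0.04, 0.01 and 0.02). For PEM-HSC against MUL-HSC their split differed from the 4 to 6 of the 10 genes. Tpi1, which interconverts the triose phosphates, had 274 ± 36.9 CPM in PLT-HSC, 343 ± 97.8 CPM in PEM-HSC and 319 ± 59.2 CPM in MUL-HSC.

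Genes around the pathway did not pass the test either. Txnip, which restrains glucose uptake, had 827 ± 329 CPM in PLT-HSC, 461 ± 133 CPM in PEM-HSC and 553 ± 328 CPM in MUL-HSC. Fbp1, the gluconeogenic counterpart of phosphofructokinase, had 37.1 ± 27.1 CPM in PLT-HSC, 82.3 ± 62.1 CPM in PEM-HSC and 99.98 ± 52.3 CPM in MUL-HSC. Pdhb, a subunit of pyruvate dehydrogenase, had 217 ± 29.7 CPM in PLT-HSC, 281 ± 34.4 CPM in PEM-HSC and 319 ± 44.0 CPM in MUL-HSC. The adjusted p by edgeR for PLT-HSC against MUL-HSC was 0.847 for Txnip, 0.646 for Fbp1 and 0.630 for Pdhb. In the pentose phosphate pathway, which branches off after hexokinase, Taldo1 had 342 ± 79.4 CPM in PLT-HSC, 377 ± 93.0 CPM in PEM-HSC and 518 ± 126 CPM in MUL-HSC. Pgls, of the same pathway, had 158 ± 35.6 CPM in PLT-HSC, 155 ± 18.6 CPM in PEM-HSC and 169.5 ± 30.4 CPM in MUL-HSC.

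Of the regulators, Myc had 236 ± 88.5 CPM in PLT-HSC, 324 ± 119 CPM in PEM-HSC and 458 ± 122 CPM in MUL-HSC. Its log2 difference of -0.99 (SE 0.33, unadjusted p = 0.00893, adjusted p = 0.536 by edgeR) for PLT-HSC against MUL-HSC had the lowest p of the 71 genes in that comparison and did not pass. Meis1, a homeobox gene reported to raise Hif1a in mouse HSCs, had 485 ± 178 CPM in PLT-HSC, 452 ± 104 CPM in PEM-HSC and 325 ± 37.8 CPM in MUL-HSC. Of the HIF targets outside glycolysis, Cited2 had 495 ± 219 CPM in PLT-HSC, 374 ± 69.9 CPM in PEM-HSC and 313 ± 93.8 CPM in MUL-HSC, and Bnip3l had 186 ± 44.3 CPM in PLT-HSC, 151 ± 27.5 CPM in PEM-HSC and 171 ± 33.6 CPM in MUL-HSC. The 13 tested HIF targets had a median log2 difference of -0.02 for PLT-HSC against MUL-HSC, against 0.04 over all genes.

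The libraries differed in the level of 40 cell cycle genes, taken as their mean log2 CPM, centred: -3.06, -1.48 and 1.18 in PLT-HSC, -0.96 to 1.57 in PEM-HSC and 1.30, 1.29, -1.73 and 0.98 in MUL-HSC. A term for this level was added to the group terms to ask whether the 10 genes moved with it. edgeR called 0 of 10 slopes, against 0.0479% of all genes (0.0399% with a positive slope), and DESeq2 and limma voom also called 0 of 10. That share is edgeR's alone, and DESeq2 and limma voom called more of all genes (counts at the end). Of the 6 genes behind edgeR's share 4, Top2a, Nusap1, Ube2c and Rrm1, are among the 40 that define the level, so the share is no measure of how many other genes follow it. At an unadjusted p under 0.05 there were 0 of 10, against 8.31% of all genes. The highest slopes were 0.39 log2 units per unit of cell cycle level for Slc2a1 (SE 0.27, unadjusted p = 0.163, adjusted p = 0.835 by edgeR) and 0.35 for Hk1 (SE 0.18, unadjusted p = 0.0738, adjusted p = 0.689 by edgeR). Leaving out 1 library moved the Slc2a1 slope between 0.21 and 0.90 and the Hk1 slope between 0.20 and 0.63, with no call. The lower value of each came when MUL-HSC replicate 3 was left out and the higher when PLT-HSC replicate 1 was. Aldoa had the lowest, -0.07 (SE 0.06). Of the abundant enzymes Ldha was at -0.03 (SE 0.06), Gapdh at 0.09 (SE 0.07) and Pgk1 at 0.0035 (SE 0.08), and the median of the 10 slopes was 0.05 against 0.01 for all genes. With the cell cycle level in the fit, the Pgk1 difference for PLT-HSC against MUL-HSC was -0.66, close to the -0.67 without it.

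**Figure D5:**
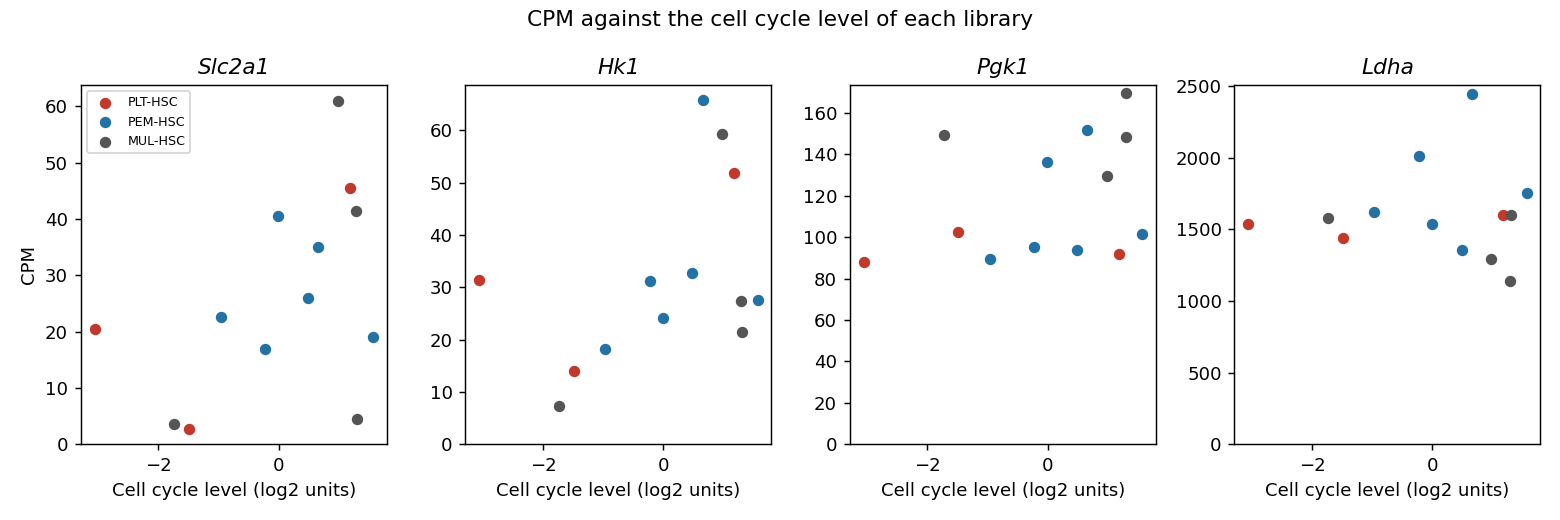
Level of Slc2a1, Hk1, Pgk1 and Ldha in CPM against the cell cycle level of the library (mean log2 CPM of 40 genes, centred), 1 panel per gene and 1 point per library, coloured by PLT-HSC, PEM-HSC and MUL-HSC. The points of Slc2a1 and Hk1, which had the highest slopes (0.39 and 0.35), scatter widely at each level, and Ldha (-0.03) runs flat.

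The known HIF response element has the core ACGTG or GCGTG, and both strands of the 250 bases upstream of each annotated start were searched for it (RefSeq, GRCm38.p6, while the counts were made on mm9). All 10 genes matched the table, with 17 upstream regions, and 14 of the 17 regions, or 82.4%, held the core at least once, against 38.6% of 32851 upstream regions of that length. Regions of 1 gene can overlap: a pair of Aldoa regions hold the same match and a pair of Eno1 regions the same 2 matches, so these count more than once among the 14. Each of the 10 genes had it in at least 1 region, but the share of all genes that do was not computed. A gene with several regions has more chances of a match. The 32851 regions were not matched to these 17 for base composition, so whether the core is enriched was not tested. The E-box CACGTG, which MYC is known to bind and which contains ACGTG, occurred in 1 of the 17 regions, against 6.02% of all. A match is a description of these letters and not a measured site. Of these regions 2 are shown, that of Ldha because it held the most matches (5, on both strands, with overlaps inside the E-boxes) and that of Pgk1 because this gene separated PLT-HSC from MUL-HSC. Capitals mark the matches.
Ldha, chr7:46845554-46845803, plus strand: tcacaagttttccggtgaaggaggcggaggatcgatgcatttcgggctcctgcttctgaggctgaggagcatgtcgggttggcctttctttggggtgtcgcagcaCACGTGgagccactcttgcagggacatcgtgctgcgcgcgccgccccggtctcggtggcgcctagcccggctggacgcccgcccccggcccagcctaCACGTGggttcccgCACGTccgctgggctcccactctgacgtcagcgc
Pgk1, chrX:106186850-106187099, plus strand: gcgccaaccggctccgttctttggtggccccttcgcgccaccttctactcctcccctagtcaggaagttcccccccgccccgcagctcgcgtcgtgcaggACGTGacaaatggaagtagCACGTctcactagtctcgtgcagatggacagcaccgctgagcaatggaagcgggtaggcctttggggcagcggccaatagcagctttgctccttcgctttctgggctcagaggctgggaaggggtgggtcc
Neither region overlapped an annotated exon. In Pgk1 the matches lie 150 and 131 bases upstream of the start, and in Ldha the nearest lies 34 bases upstream.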

How the data were processed

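Per the labels' protocols, polyA RNA of sorted cells was made into Smart-seq+ cDNA and Nextera XT libraries. The submitters' processing notes name Trimmomatic, FastQC, STAR, featureCounts and mm9, for which versions, annotation and strand mode are not given in the sources used here. As deposited, the values are read counts per gene symbol, taken as not normalized by the authors because they are whole numbers with unequal totals, and no molecular identifiers are labelled, so reads include PCR copies and floors cover counting error only (3 counts equal 0.183 CPM in the shallowest library). The 92 ERCC spike-in rows, 0.0191% to 0.0612% of counts, were left out of library sizes.

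CPM were computed from the totals over genes. Counts were tested with edgeR 4.0.16 in R 4.3.3 (TMM scaling, filterByExpr, robust quasi-likelihood fit of the 13 libraries with 1 term per group), which left 12536 genes, with Benjamini-Hochberg adjustment over these. The fit was also run on simulated data with planted differences, whose outcome is not given here and is not used to read the lack of calls. DESeq2 1.42.0, limma voom 3.58.1, other scalings and filters, covariates, a replicate block and leaving out each library were the alternatives. Levels per kilobase used exon unions of GENCODE vM21 (GRCm38), found for 22709 of the 24015 symbols, and promoters came from RefSeq (GRCm38.p6), a later build than that of the counts. Members and lists were chosen with earlier results of these data known. All 10 members were named, with the isoforms that enter a share, from each of the 6 other pathway lists any called gene and the highest 2 by mean CPM, and from the cell cycle and marker lists the highest 2; other genes of those lists are named where they were at 0 or called, after their values were seen. No replicates of a group agreed within sampling noise (lowest chi-square per degree of freedom 163). Same-numbered libraries did not deviate together, so the numbers were not taken to pair them.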

Additional observations from a re-analysis of the deposited data

Results flagged for a closer look

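In 3 cases a single PEM-HSC library stood far from the other 5 in Dixon's test at the 95% level. Hk1 was at 65.8 CPM in PEM-HSC replicate 3, where the next library had 32.8 CPM. Gapdh was at 697 CPM in the same library, where the next had 485 CPM. Hk2 was at 114.7 CPM in PEM-HSC replicate 5, where the next had 59.8 CPM. The test was run on 20 sets of libraries (10 genes in PEM-HSC and in MUL-HSC), and chance flags about 1 in 20 groups, so about 1 such case is the chance level here.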

How the results depend on the processing

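The 10 genes' 3 log2 differences and slope, 40 values, were recomputed 946 times, and 0 were called (lowest adjusted p 0.241, edgeR's main adjusted p for Pgk1 in PLT-HSC against MUL-HSC being 0.630). Direction was kept in 881 and reversed in 65, and 21 of the 40 values kept it throughout; members called was 0 in all 95 recomputed counts. Of 294 recomputed shares 266 kept direction and 28 reversed, with 8 of 21 keeping it throughout and a lowest adjusted p of 0.333 (exact permutation tests). The cause of these changes was not tested. Eno1 could not be fitted under the filter of 10 CPM.

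Reversed values are on the log2 scale. With RLE scaling, Eno1 was at 0.00019 in PEM-HSC against MUL-HSC. With no filter the Pgk1 slope was -0.0014. With voom, Slc2a1 in PEM-HSC against MUL-HSC was 0.17, the Hk2 slope 0.10 and the Pgk1 slope -0.0069. With detected genes as a covariate, Hk1 was -0.37 in PLT-HSC and -0.043 in PEM-HSC against MUL-HSC, and the slopes of Pfkl and Hk2 were -0.24 and 0.0053. With the cell cycle level as a covariate, Slc2a1 was 0.38 in PLT-HSC and 0.26 in PEM-HSC against MUL-HSC, and for PLT-HSC against PEM-HSC Slc2a1 was 0.12, Hk1 0.44, Gapdh 0.022 and Aldoa -0.083. With the replicate block, which changed no call of the 10 genes and rests on numbers that do not pair the libraries (10 correlations of -0.186 to 0.0689), Slc2a1 and Eno1 in PEM-HSC against MUL-HSC were 0.33 and 0.083, Hk1 and Aldoa in PLT-HSC against PEM-HSC 0.046 and -0.060, and the Hk2 slope 0.048. Without group terms the Eno1 slope was 0.045.

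Leaving out each library gave, for PLT-HSC against MUL-HSC, ranges of -1.21 to 0.33 for Slc2a1, -0.30 to 0.69 for Hk1, -0.037 to 0.74 for Hk2, -0.030 to 0.32 for Aldoa and -0.0046 to 0.55 for Pdk1. For PEM-HSC against MUL-HSC they were -0.42 to 0.64 for Slc2a1, -0.12 to 0.78 for Hk1, -0.52 to 0.67 for Pfkl, -0.22 to 0.071 for Gapdh, -0.054 to 0.080 for Eno1 and -0.34 to 0.13 for Pdk1. For PLT-HSC against PEM-HSC they were -1.16 to 0.23 for Slc2a1, -0.49 to 0.26 for Hk1, -0.15 to 0.19 for Aldoa and -0.25 to 0.028 for Gapdh. Slopes ran from -0.23 to 0.16 for Hk2, -0.019 to 0.051 for Pgk1 and -0.089 to 0.087 for Eno1. Shares, in percentage points, ran for PLT-HSC against MUL-HSC from -6.89 to 9.50 for Slc2a1, -13.2 to 2.63 for Hk1, -0.576 to 4.52 for Ldha and -3.61 to 2.72 for Pdk1. For PEM-HSC against MUL-HSC they ran from -3.19 to 5.72 for Slc2a1, -13.9 to 1.93 for Hk1 and -2.73 to 0.517 for Pdk1. For PLT-HSC against PEM-HSC they ran from -8.07 to 8.32 for Slc2a1, -4.98 to 6.87 for Hk1, -0.0325 to 0.848 for Aldoa, -13.6 to 6.20 for Eno1, -2.40 to 2.70 for Ldha and -2.04 to 4.29 for Pdk1.

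Over all genes, the 6 calls for PLT-HSC against MUL-HSC became 11 with no filter, 13 at 10 CPM, 262 with DESeq2, 0 with voom, 1 with the cell cycle covariate, 2 with the replicate block and 1 with only these groups fitted. Leaving out a library gave 1 to 37, 37 when PLT-HSC replicate 3 was left out, 21 for MUL-HSC replicate 3 and 1 for PLT-HSC replicate 2 or MUL-HSC replicate 1. The 1 call for PEM-HSC against MUL-HSC became 177 with DESeq2, 7 with the cell cycle covariate and 0 with detected genes, the block or only these groups (0 to 4 leaving out a library). The 0 calls for PLT-HSC against PEM-HSC became 114 with DESeq2 and 1 with voom (0 to 2). The 6 slopes became 373 with DESeq2, 28 with voom, 1 with detected genes, 0 with the block and 32 without group terms (0 to 10).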
